A study of Mus musculus with 12 samples.

Results

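The genes Fos, Fosb, Jun, Junb and Jund encode the core of the transcription factor AP-1. All probe sets annotated to these 5 symbols were taken, 7 of 12422 on the array, and 6 of the 7 passed the filter on dim probe sets that kept 7069 for testing. Each gene had 1 probe set except Fos and Junb, which had 2 each, and no probe set was annotated to a member together with another gene. The members were read on 12 Affymetrix MG-U74Av2 arrays of mouse hippocampal polyA RNA, 1 array per sample.

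Fos proteins pair with Jun proteins through a leucine zipper, and the pair binds short DNA elements with the adjoining basic region. Fos, Fosb and Junb are immediate early genes: in neurons, calcium and cAMP signals raise their transcription within minutes without new protein synthesis, partly through CREB bound to cAMP response elements (CRE) near their starts. Fos and Fosb proteins cannot pair with themselves and need a Jun partner, whereas Jun proteins can pair with each other. Jun activates its own gene through an AP-1-like site, and Jund is expressed more steadily than the others. In the hippocampus, Fos is widely used as a sign of recent neuronal activity.

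VP16-CREB is a form of CREB fused to a viral activation domain that drives CREB target genes without stimulation. In the transgenic mice, called VC in the labels, doxycycline (dox) keeps the transgene off and its removal turns it on. Whole hippocampus came from wild-type mice (2 arrays), VC mice on dox (1 array), and VC mice 1 week (2 arrays), 2 weeks (2 arrays) and 5 weeks (1 array) off dox. The first 3 arrays are called never induced here, and the 5 arrays off dox are called induced. A further VC hippocampal sample was induced for 3 weeks and then put back on dox for 2 weeks (1 array, called reversed); its title names VC mice and its description wild type, so it was kept apart. CA1, a hippocampal subfield, was microdissected from VC mice after 3 weeks without dox (2 arrays) and from wild-type mice under the same conditions (1 array). Each hippocampal sample pooled 6 to 10 mice, so in hippocampus the p-values measure the spread between pooled samples and not between mice. The number of mice per CA1 sample is not given, and the fit shares its spread over both regions. The promoter that drives the transgene system and the age, strain and sex of the mice are not stated in the labels.

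Levels are given as scaled signal, in which every array has a trimmed mean of 1000, and differences as log2 with the standard error (SE) of a limma fit over all 12 arrays. An adjusted p is adjusted by the Benjamini-Hochberg method over all 7069 tested probe sets, and a probe set passed where it was under 0.05. A group of 1 array has no spread of its own and was given that of the replicated groups. VC CA1 was the 1 replicated CA1 group, so fits that left out a VC CA1 array or all CA1 arrays took their spread from hippocampal arrays. Log2 values correlated at 0.93 to 0.98 between hippocampal arrays, 0.91 to 0.95 between CA1 arrays and 0.83 to 0.92 between the regions. VC CA1 array 2 had the lowest correlation with wild-type CA1 (0.91, against 0.95 for VC CA1 array 1). The ratio of 3′ to 5′ Actb probe sets is a measure of RNA and labelling quality, a higher ratio meaning less 5′ signal relative to 3′. It was 1.40 on VC CA1 array 2 and 3.73 on VC CA1 array 1, against 1.83 on the wild-type CA1 array. The value of array 1 was the highest of the 12 arrays and that of array 2 the lowest. The same ratio for Gapdh was 0.836 on VC CA1 array 2 and 1.13 on array 1, against 1.17 on the wild-type CA1 array. The 2 VC CA1 arrays thus stood on opposite sides of wild-type CA1 in the Actb ratio and both below it in the Gapdh ratio, and their values are given one by one throughout. The CA1 label was set against markers. Of dentate granule cells, 5 markers summed to 2099 and 3656 on VC CA1 arrays 1 and 2 and to 3404 on the wild-type CA1 array, against 5023 to 5678 in never-induced hippocampus. The sum of 3 CA1 pyramidal markers was 6586 and 7759 on VC CA1 arrays 1 and 2 and 8527 in wild-type CA1, against 7229.7 to 8519.6 in never-induced hippocampus. CA1 samples therefore held less dentate marker signal than most hippocampal samples, though it was not absent. The VC CA1 arrays did not exceed the never-induced range in the CA1 marker sum, but its 3 genes went different ways. Wfs1 averaged 3471 on the VC CA1 arrays and read 3944 on the wild-type one, against a never-induced mean of 2986. For Pou3f1 these values were 1254 and 1508, against 909. Ccn3 was lower, at 2448 and 3075, against 3905.

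Fos signal was ordered by the weeks of induction, and at 5 weeks it was higher than in never-induced hippocampus by the test. Fos is the member that gives AP-1 its stimulus dependence, as its RNA and protein are short-lived and nearly absent without stimulation. The bright Fos probe set gave signals of 959 and 1332 on the wild-type hippocampal arrays and of 1030.0 on the VC array on dox. After 1 week off dox the signals were 1469 and 1828, after 2 weeks 2454 and 2878, and after 5 weeks 5620.3. The 4 steps did not overlap: both 1-week arrays lay above all never-induced arrays, both 2-week arrays above both 1-week arrays, and the 5-week array above all of them. Of the 7069 tested probe sets, 32 (0.453%) stepped up without overlap in this way, and Fos was the 1 member among them. Each of the 5 induced arrays exceeded each of the 3 never-induced ones, as for 1.71% of tested probe sets.

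The Fos promoter is shown because it carries the sequence that CREB is known to read. The RefSeq window (GRCm38.p6, chr12:85473750-85473899, plus strand, positions from the annotated start as 0) is printed with matches to TGACG, the core of the CRE, and to TATAAA, the TATA box, in capitals.
Fos: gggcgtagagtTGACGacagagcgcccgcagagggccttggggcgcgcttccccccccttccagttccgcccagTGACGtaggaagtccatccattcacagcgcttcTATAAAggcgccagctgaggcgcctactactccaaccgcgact
The CRE core began at -129 and again at -66, and the TATA box at -33. RefSeq windows from 250 bases before to 50 bases after the start, 300 bases long, were searched on both strands for the full CRE (TGACGTCA), its core TGACG, the AP-1 site TGANTCA and the Jun site TGACATCA, on both strands for the CArG box read by serum response factor, and on the gene strand for TATAAA. The core TGACG lies within the full CRE, so each full CRE also counts as a core. Of 32851 windows, 20.8% held TGACG, 1.79% the full CRE, 7.81% TGANTCA, 3.62% TGACATCA, 8.32% TATAAA and 1.63% a CArG box. These matches are descriptions of letters in a window and were not tested for binding.

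In the limma fit, Fos was 5.13-fold higher at 5 weeks than in never-induced hippocampus (5620.3 against 1107 ± 198, SD, n = 3). The log2 difference was 2.36 ± 0.39 SE, with an adjusted p of 0.0282. Of all tested probe sets, 0.99% passed in this comparison and 0.863% passed as higher, and Fos was the 1 of the 6 tested members that passed. At 2 weeks Fos averaged 2666 ± 299.6 (SD, n = 2), a log2 difference of 1.28 ± 0.31 SE that did not pass (adjusted p = 0.377, limma), where 0.156% of probe sets passed. At 1 week it averaged 1648 ± 253 (SD, n = 2), a log2 difference of 0.58 ± 0.31 SE with an adjusted p of 0.969 in limma, where 0.0283% passed. Between 5 weeks and 1 week the log2 difference was 1.78 ± 0.42 SE (adjusted p = 0.181, limma), where 0.637% passed. Over all induced arrays, Fos averaged 2849.8 ± 1642 (SD, n = 5) against 1107 ± 198 in never-induced hippocampus, a log2 difference of 1.22 ± 0.25 SE (adjusted p = 0.171, limma). In that comparison 0.127% of probe sets passed, and 0 of the 6 members. Without adjustment, Fos was the 1 of the 6 members with a p under 0.05 over all induced arrays, where 4.6% of all tested probe sets had one, and at 2 weeks, where 4.46% had one. At 1 week 0 members had one, against 5.01% of all. Fos and the r probe set of Junb had one at 5 weeks against never-induced hippocampus (7.3% of all) and at 5 weeks against 1 week (6.85%).

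The 5-week result rests on 1 array and on the estimate of the spread. Its adjusted p in limma lay above 0.05 when any 1 of the 7 other hippocampal arrays from never-induced, 1-week or 2-week mice was left out. It was 0.104 without wild-type array 1, 0.104 without VC on dox, 0.0528 without wild-type array 2, 0.0625 without either 1-week array and 0.0618 without either 2-week array. The log2 difference was 2.26 to 2.50 when a never-induced array was left out. Leaving out a 1-week or 2-week array could not change it, as these arrays do not enter the comparison. The adjusted p was also above 0.05 at 0.0787 with quantile normalization, 0.156 without the filter and 0.744 with values as deposited. It was 0.104 with wild type alone as never-induced and 0.104 with the deposited scale as a block. For Fos at 5 weeks these last settings gave results already listed, those without VC on dox and without wild-type array 1 respectively. They are therefore no further checks of the call. When the CA1 arrays were left out, a choice made after the data had been seen, the adjusted p in limma was 0.0044 at 5 weeks, 0.0264 over all induced arrays and 0.0247 for 5 weeks against 1 week. The log2 differences could not change, as no CA1 array enters these comparisons.

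After reversal Fos read 1163, inside the range of the never-induced arrays and below all 5 induced arrays. The share of all tested probe sets in that position was not counted. The log2 difference of the reversed from the never-induced arrays was 0.09 ± 0.39 SE (adjusted p = 1.0, limma). Its difference from the induced arrays was -1.13 ± 0.37 SE, which did not pass (adjusted p = 1.0, limma), where 0.0424% of probe sets passed. No tested probe set passed between the reversed and never-induced arrays in limma, although 3.38% had an unadjusted p under 0.05, among them the r probe set of Junb (-0.53, unadjusted p = 0.0497, limma). Between the reversed and induced arrays, Fos and the r probe set of Junb had an unadjusted p under 0.05, as had 3.37% of all.

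The other Fos probe set was dim. It lay above its array's median on 0 arrays and was not tested. Its signal ran from 116 to 237 over the 9 hippocampal arrays, with the lowest value at 5 weeks and the highest after reversal. In CA1 it read 24.0 and 41.0 in VC, both under the floor of 65.7, and 99.3 in wild type. The order by weeks was thus seen with the bright probe set and not with the dim one, and every other Fos value given is that of the bright one.

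**Figure D1:**
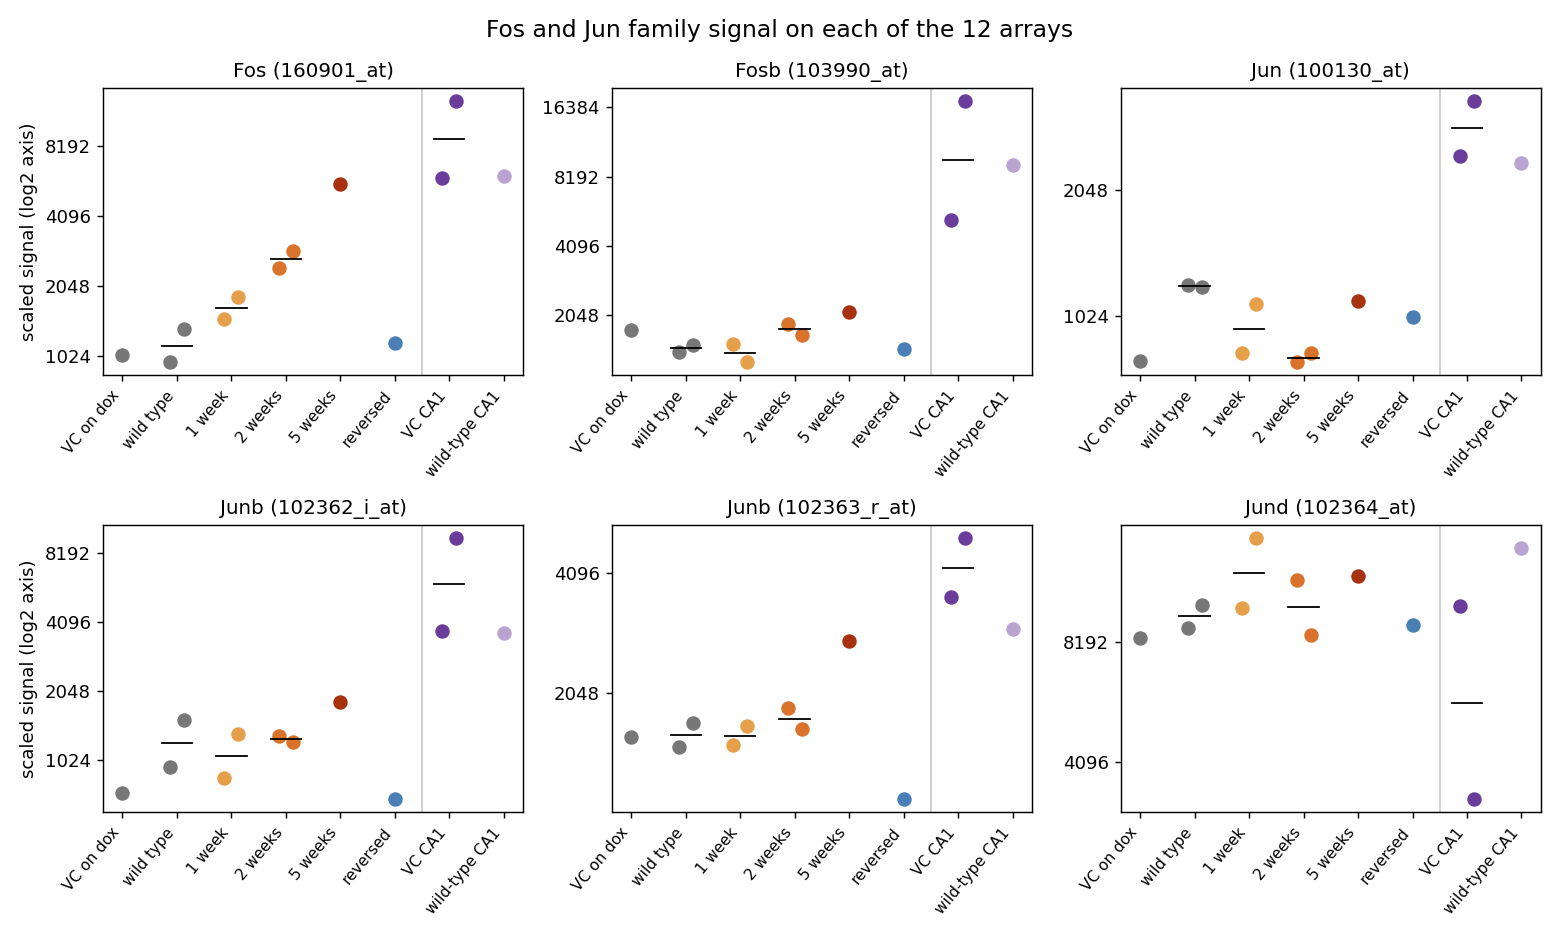
Scaled signal (log2 axis, a panel per tested probe set with its own range) on each of the 12 arrays, with 1 point per array and a black line at the mean of the log2 values where a group has 2 arrays. Fos values step up over the never-induced, 1-week and 2-week arrays to 5620.3 at 5 weeks, with 1163 after reversal, and in every panel except Jund the 3 CA1 arrays lie above all hippocampal arrays.

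Fosb is the closest relative of Fos, and its short splice form, ΔFosB, is known to build up under repeated stimulation. The probe set does not say which form it read. Fosb signals were 1428 and 1529 on the wild-type hippocampal arrays and 1764 on the VC array on dox. They were 1534 and 1281 after 1 week off dox, 1881 and 1686 after 2 weeks, and 2122 after 5 weeks. The 5-week value was the highest of the hippocampal arrays, but the 1-week and 2-week arrays overlapped the never-induced ones. How many of all tested probe sets were highest at 5 weeks was not counted. At 5 weeks the log2 difference from never-induced hippocampus (1573 ± 172, SD, n = 3) was 0.44 ± 0.52 SE (adjusted p = 0.997, limma), with a 95% interval of -0.76 to 1.63. Reversed hippocampus read 1457, within the never-induced range.

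The Fosb window (GRCm38.p6, chr7:19310036-19310165, minus strand, printed 5′ to 3′ on the gene strand) is shown for the CRE core it shares with Fos, in capitals.
Fosb: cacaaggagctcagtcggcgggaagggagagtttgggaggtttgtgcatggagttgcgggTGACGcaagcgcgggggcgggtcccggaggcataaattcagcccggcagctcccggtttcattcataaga
The core began at -60, and none of the other motifs searched was found in the window. Fosb holds a CRE core near the position of the nearer one in Fos, but its signal did not pass the test in induced hippocampus while that of Fos did at 5 weeks. The difference between the 2 genes was not tested.

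Junb, the Jun protein that is induced together with Fos and activates many AP-1 sites less strongly than Jun, had 2 tested probe sets. They are called the i and the r probe set after their name endings, _i_at for a set with fewer probes than usual and _r_at for relaxed design rules. The i probe set gave 950.5 and 1538 in wild-type hippocampus, 736 on dox, 857 and 1331 after 1 week, 1301 and 1223 after 2 weeks, and 1843 after 5 weeks. The r probe set gave 1497 and 1721 in wild-type hippocampus, 1582 on dox, 1514 and 1686 after 1 week, 1869.6 and 1662 after 2 weeks, and 2759 after 5 weeks. Both probe sets gave the 5-week array the highest hippocampal value, and the share of all tested probe sets that did so was not counted. With both, the 1-week and 2-week arrays overlapped the never-induced arrays or lay within their range.

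Against never-induced hippocampus, the 5-week log2 difference of Junb was 0.85 ± 0.54 SE with the i probe set (adjusted p = 0.894, limma). With the r probe set it was 0.79 ± 0.23 SE (adjusted p = 0.322, limma). The means of the never-induced arrays were 1075 ± 415 and 1600.1 ± 113 (SD, n = 3). The fold was thus alike with both probe sets, 1.80 and 1.73, and the second, whose arrays varied less, came nearer to passing. After reversal both probe sets read below all 8 other hippocampal arrays, at 689 and 1105.5. The share of all tested probe sets that were lowest on this array was not counted. The reversed array differed from the induced ones by -0.89 ± 0.51 SE and -0.75 ± 0.22 SE on the log2 scale (adjusted p = 1.0 for both, limma).

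The Junb window (GRCm38.p6, chr8:84978739-84978868, minus strand) is shown in the same way, with the CRE core and a TATA box in capitals.
Junb: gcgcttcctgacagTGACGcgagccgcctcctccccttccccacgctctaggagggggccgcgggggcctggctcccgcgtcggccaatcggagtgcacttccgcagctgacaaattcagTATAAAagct
The core began at -106. The TATA box letters began at the annotated start itself, position 0, so the annotated start lies further upstream relative to these letters than in Fos.

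Jun, the founding partner of Fos and the Jun protein that activates most strongly, did not follow the weeks of induction. Its signals were 1217 and 1198 in wild-type hippocampus and 801 in VC mice on dox. They were 833 and 1091 after 1 week off dox, 794 and 835 after 2 weeks, and 1114 after 5 weeks. Every induced array except the lower 2-week one lay within the never-induced range of 801 to 1217. Over all induced arrays Jun averaged 933 ± 156 (SD, n = 5) against 1072 ± 235 in never-induced hippocampus (SD, n = 3), a log2 difference of -0.19 ± 0.19 SE (adjusted p = 0.999, limma). The 95% interval was -0.63 to 0.25. At 5 weeks the log2 difference was 0.08 ± 0.30 SE (adjusted p = 0.997, limma), and reversed hippocampus read 1017.

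The Jun window (GRCm38.p6, chr4:95052213-95052342, minus strand) is shown for the site through which Jun is known to act on its own gene, in capitals.
Jun: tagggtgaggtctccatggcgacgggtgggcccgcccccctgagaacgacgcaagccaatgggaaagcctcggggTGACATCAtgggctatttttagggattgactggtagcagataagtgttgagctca
The site TGACATCA began at -45. The core TGACG was not found in the 300 bases searched for Jun, nor was any motif searched found in those of Jund (chr8:70697489-70697788, plus strand, not printed). Whether the annotated starts of Junb and Jund are the main ones in hippocampus was not tested, so these windows may not be the promoters in use.

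Jund, the Jun protein known for high basal expression and for slowing growth in several cell types, gave 8881 and 10135 in wild-type hippocampus and 8399 in VC mice on dox. Its signals were 9953 and 14916 after 1 week off dox, 11727 and 8518 after 2 weeks, 12006 after 5 weeks, and 9041 on the reversed array. The replicates at 1 week and at 2 weeks lay further apart than the never-induced arrays, and the groups overlapped at both times. Over the induced arrays the log2 difference from never-induced hippocampus was 0.30 ± 0.33 SE (adjusted p = 0.999, limma), with a 95% interval of -0.46 to 1.06. At 5 weeks it was 0.40 ± 0.53 SE (adjusted p = 0.997, limma).

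The high Fos value at 5 weeks stood beside high summed signals of markers of microglia and macrophages and of some markers of several other cell types. The summed signal of 18 such markers was 18464 to 22081 in never-induced hippocampus, 19126 and 19192 after 1 week, 34016 and 37288 after 2 weeks, and 65831 after 5 weeks. Of these 18 genes, 0 were at the floor at 5 weeks and 1 to 3 on the other hippocampal arrays. After reversal the sum was 28234, above the never-induced range, while Fos was inside its never-induced range. At 5 weeks 8 of the 14 tested markers passed as higher and 0 as lower, with a median log2 difference of 1.81 against -0.03 over all tested probe sets. At 1 week the marker sum lay inside the never-induced range while both Fos values lay above theirs, although Fos did not pass the test there. Choroid plexus markers were high on those arrays: 5 genes summed to 5230 to 8018 in never-induced hippocampus, 14842 and 16131 after 1 week, 6483 and 10861 after 2 weeks, and 13053 after 5 weeks. Blood markers, 2 genes, summed to 5089 to 6829 in never-induced hippocampus, 7063 and 15278 after 1 week, 10064 and 5212 after 2 weeks, and 11189 after 5 weeks. Both choroid plexus and blood sums thus lay above the never-induced range at 1 and 5 weeks, and on 1 of the 2 arrays at 2 weeks. The sum of 6 astrocyte markers was 33560 to 37114 in never-induced hippocampus, 31247 and 34562 after 1 week, 53984 and 43069 after 2 weeks, and 56248 after 5 weeks. That of 7 interneuron markers was 35256 to 38244 in never-induced hippocampus, 32915 and 36469 after 1 week, 42865 and 48293 after 2 weeks, and 47545 after 5 weeks. At 5 weeks 1 of 6 tested astrocyte markers, Gfap, passed as higher, and 0 of 5 choroid plexus, 0 of 5 interneuron and 0 of 1 blood markers passed. Genes within these sums differed. Against never-induced means, Gfap read 20842 against 4221.5, Ttr of choroid plexus 6112 against 2206, Npy 7589.5 against 3443 and Slc32a1 9230 against 4815. Aldoc of astrocytes read 20749 against 21118, and the interneuron genes Gad1 and Pvalb 12217 against 11850 and 5622 against 5589. Dentate granule markers had a sum of 5023 to 5678 in never-induced hippocampus, 4922 and 5351 after 1 week, 4269 and 4531 after 2 weeks, and 3212 after 5 weeks, and 0 of 3 tested ones passed. The sum of 4 general neuronal markers was 29299 at 5 weeks, against 31833 to 37743 in never-induced hippocampus. Of these 4, 0 passed, and their median log2 difference was -0.0005. Snap25, the brightest of them, read 24797 at 5 weeks against a never-induced mean of 30994. Nefl was also lower in value, while Syt1 and Camk2a were higher. In whole tissue, fewer cells of a type and less RNA per cell cannot be told apart. The part of these cell types in the Fos value was not tested.

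**Figure D2:**
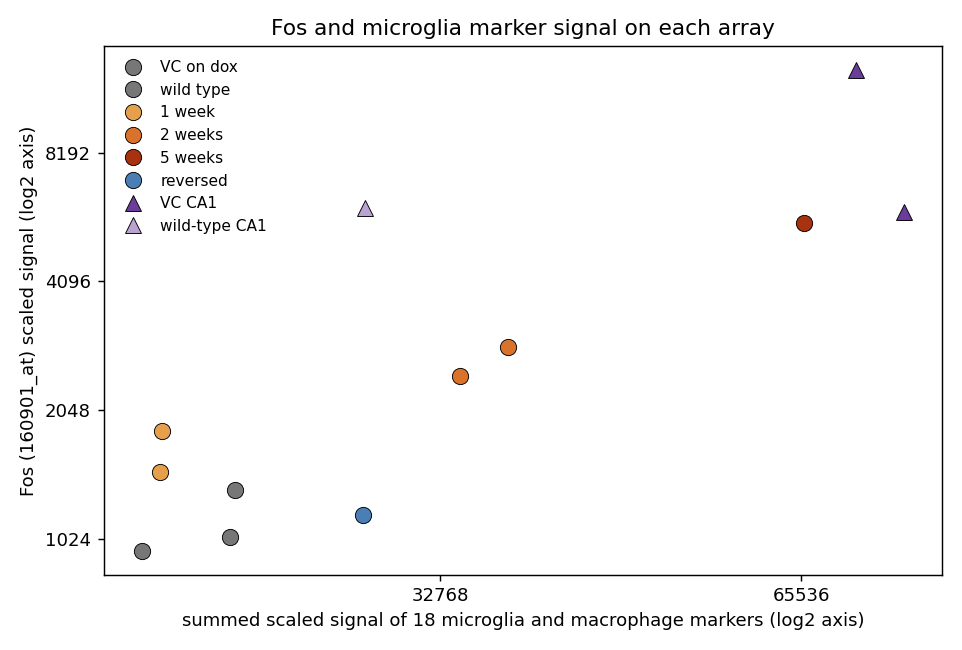
Fos signal (bright probe set, log2 axis) against the summed signal of 18 microglia and macrophage markers (log2 axis), 1 point per array, circles for hippocampus and triangles for CA1. The 2-week and 5-week hippocampal arrays are high in both, the 1-week arrays lie above the never-induced ones in Fos at a like marker sum, and wild-type CA1 has a Fos signal of 6092 at a marker sum of 28333.

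In CA1, the question was whether 3 weeks of VP16-CREB changed the family in this subfield, which was sampled because whole tissue can hide regional changes. No member passed in limma, where 1.26% of all tested probe sets did. Without adjustment, 1 of the 6 members had a p under 0.05, Jund, where 779 of the 7069 probe sets had one. The 2 VC arrays differed on most members: array 1 lay within 0.27 of wild type on the log2 scale for Fos, Jun and Junb, and array 2 lay further above it.

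Fos read 5967 and 12783 on VC CA1 arrays 1 and 2, against 6092 in wild-type CA1. Array 1 differed from wild type by -0.03 on the log2 scale and array 2 by 1.07. The log2 difference was 0.52 ± 0.42 SE (adjusted p = 0.706, limma), with a 95% interval of -0.43 to 1.47. Wild-type CA1 already lay above the 5-week hippocampus in Fos signal, so the 3 CA1 arrays and the 5-week array were the 4 highest of the 12.

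Fosb read 5322 and 17478 on VC CA1 arrays 1 and 2, against 9172 in wild-type CA1. The wild-type value lay between the VC arrays, with log2 differences of -0.79 for array 1 and 0.93 for array 2. Their mean gave 0.07 ± 0.55 SE (adjusted p = 0.985, limma), with a 95% interval of -1.19 to 1.34. Of the tested probe sets 5.08% had a lower value than Fosb on this scale for array 1, and 91.4% for array 2.

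Junb read 3771 and 9583 with the i probe set on VC CA1 arrays 1 and 2, against 3679 in wild-type CA1. With the r probe set it read 3559 and 5013, against 2958. Both VC arrays lay above wild type with both probe sets, array 2 by more. The log2 differences were 0.71 ± 0.57 SE (adjusted p = 0.710, limma) and 0.51 ± 0.25 SE (adjusted p = 0.498, limma). Jun read 2463 and 3332 on VC CA1 arrays 1 and 2, against 2371, a log2 difference of 0.27 ± 0.32 SE (adjusted p = 0.811, limma).

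Jund was lower in value on both VC arrays. It read 10074 and 3309.7 on VC CA1 arrays 1 and 2, against 14072 in wild-type CA1. Array 2 had the lowest Jund value of the 12 arrays, and on that array 0.368% of tested probe sets lay further below wild-type CA1. The log2 difference was -1.29 ± 0.56 SE, with a 95% interval of -2.57 to -0.01, and did not pass (adjusted p = 0.452, limma). Without VC CA1 array 1, so with 1 array against 1, it was -2.09, and without array 2 it was -0.48. Neither of these fits had CA1 replicates. The log2 SD of Jund was 1.14 in VC CA1, against 0.14, 0.41 and 0.33 in the never-induced, 1-week and 2-week groups. Array 2 is also the one with the lowest Actb 3′ to 5′ ratio of the 12, and array 1 the one with the highest, so with the least 5′ signal relative to 3′. The part of RNA quality in the values of either array was not tested.

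The effect in CA1 was set against that in hippocampus as a difference of log2 differences, CA1 minus hippocampus. No member passed in limma, where 0.113% of tested probe sets did, and Jund was the 1 of the 6 members with an unadjusted p under 0.05, against 6.71% of all. For Fos the difference was -0.70 ± 0.48 SE (adjusted p = 0.924, limma), with a 95% interval of -1.80 to 0.41. Jund had the furthest value, -1.59 ± 0.65 SE (adjusted p = 0.706, limma), and without VC CA1 array 1, so with no CA1 replicates, it was -2.39. The induction times differ, 3 weeks in CA1 against 1, 2 and 5 weeks in hippocampus. Microglia markers were high in VC CA1 too, with sums of 79906 and 72772 on arrays 1 and 2 against 28333 in wild-type CA1, and 6 of 14 tested markers passed as higher. These sums were alike on the 2 VC arrays, whereas Fos, Fosb and Junb were higher on array 2 than on array 1. Astrocyte markers summed to 53772 and 32286 on VC CA1 arrays 1 and 2, against 37108 in wild-type CA1, and interneuron markers to 52633 and 42736, against 35124. Of the tested ones, 1 of 6 astrocyte markers passed as higher and 0 of 5 interneuron markers passed. The part of these cell types in the VC CA1 values was not tested.

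The regions were compared in mice without the transgene switched on. Wild-type CA1 lay far above never-induced hippocampus for Fos and Fosb and above it for Jun and Junb. Of the 6 tested members, 4 passed as higher and 0 as lower, where 2.83% of all tested probe sets passed as higher and 8.74% as lower (11.6% in all). On 5 of the 6, all except Jund, all 3 CA1 arrays lay above all 9 hippocampal arrays, which held for 7.61% of tested probe sets.

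Fos read 6092 in wild-type CA1, against 1107 ± 198 in never-induced hippocampus (SD, n = 3). It was 5.56-fold higher, with a log2 difference of 2.47 ± 0.39 SE (adjusted p = 0.00922, limma). Fosb read 9172 against 1573 ± 172, which was 5.85-fold higher (log2 difference 2.55 ± 0.52 SE, adjusted p = 0.0221, limma). For Fosb the gap between the regions was wide, as the lowest CA1 value of 5322 stood against a highest hippocampal value of 2122. Jun read 2371 against 1072 ± 235, with a log2 difference of 1.17 ± 0.30 SE (adjusted p = 0.0424, limma).

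Junb read 2958 with the r probe set in wild-type CA1, against 1600.1 ± 113 in never-induced hippocampus (log2 difference 0.89 ± 0.23 SE, adjusted p = 0.0441, limma). With the i probe set it read 3679 against 1075 ± 415, a larger log2 difference of 1.84 ± 0.54 SE that did not pass (adjusted p = 0.0609, limma). Jund read 14072 against 9138 ± 896, a log2 difference of 0.63 ± 0.53 SE (adjusted p = 0.439, limma). The 4 calls rest on 1 wild-type CA1 array and are close to the threshold for Jun and Junb.

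The calls in wild-type CA1 depended on which arrays were in the fit. The Fos call held without each of the other arrays in turn. That of Fosb had an adjusted p in limma of 0.0536 without wild-type hippocampus array 1, 0.0593 without wild-type hippocampus array 2 and 0.0513 without VC on dox. Without these arrays in the same order, Jun had 0.0630, 0.0755 and 0.0835, and Junb with the r probe set had 0.0950, 0.0863 and 0.102. Leaving out a 1-week or a 2-week array gave 0.0524 or 0.0659 for Jun and 0.0616 or 0.0653 for the r probe set of Junb. Without either VC CA1 array, the i probe set of Junb passed (adjusted p = 0.0182, limma). With values as deposited, before the arrays were put on 1 scale, wild-type CA1 lay lower than never-induced hippocampus for Jun (-0.55), Junb with the r probe set (-0.83) and Jund (-1.10), where the median of all probe sets was -1.85 in place of -0.13. Under quantile normalization 202 probe sets passed as higher and 348 as lower, against 200 and 618, so the share called higher was 36.7% in place of 24.4%, and Fos was the 1 member that passed.

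Other markers also differed between the regions. Endothelial markers summed to 6865 in wild-type CA1 over 8 genes, against 3137 to 3884 in never-induced hippocampus, and 2 of 7 tested ones passed as higher. The 4 neuronal markers summed to 25015, against 31833 to 37743, and 0 of the 4 passed. The 18 microglia markers summed to 28333, against 18464 to 22081. Of the 14 tested microglia markers, 1 passed as higher and 2 as lower, so they did not go the same way. In this comparison 2.83% of all tested probe sets passed as higher and 8.74% as lower. The CA1 samples were microdissected and the hippocampal ones were not described so, and dissection and region cannot be told apart here. The part of the other cell types in the CA1 values was not tested.

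**Figure D3:**
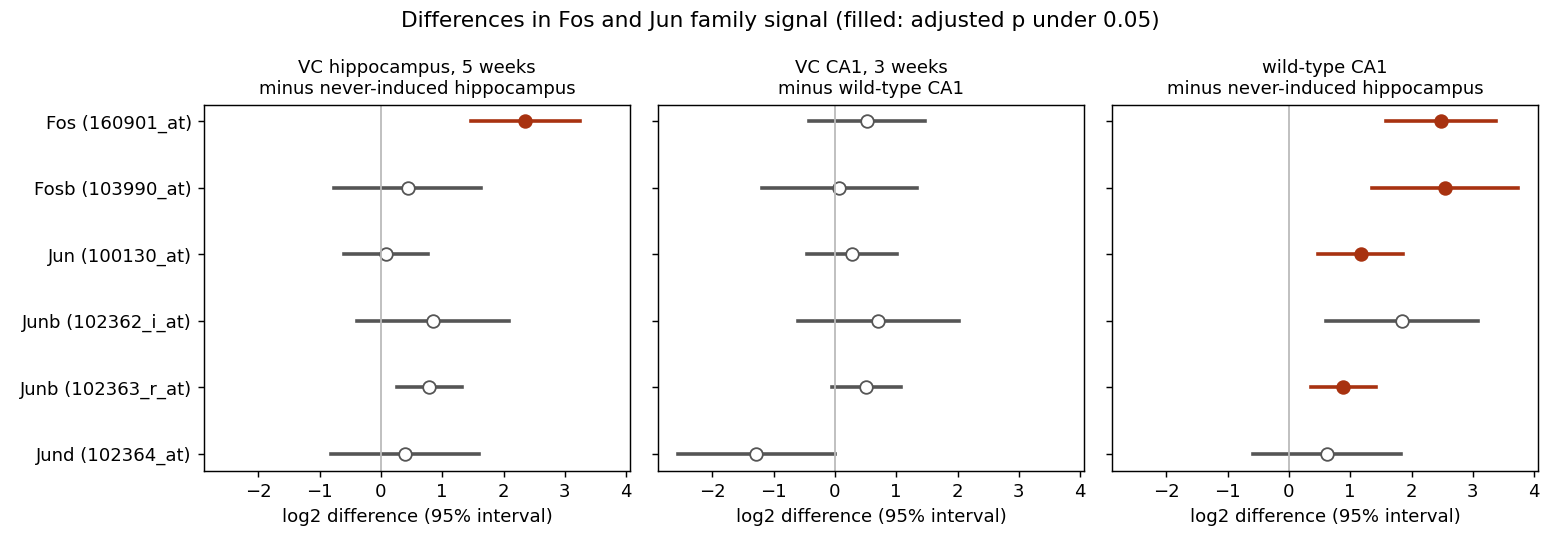
Log2 differences of the 6 tested probe sets with their 95% intervals from limma in 3 comparisons, filled where the adjusted p over all tested probe sets was under 0.05. Fos alone passes at 5 weeks (2.36), no member passes in VC CA1, and Fos, Fosb, Jun and Junb with the r probe set pass in wild-type CA1.

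The members moved together over all 12 arrays, with Jund apart. Pearson correlations of log2 values between different genes among Fos, Fosb, Jun and Junb ran from 0.76 to 0.94 over the 12 arrays. Those of Jund with each of them ran from -0.50 to -0.32, and the 2 Junb probe sets correlated with each other at 0.96. These arrays share 2 regions with different levels. Within the 9 hippocampal arrays, Fos correlated at 0.81 and 0.75 with the 2 Junb probe sets (the r probe set first), 0.67 with Fosb, 0.46 with Jund and -0.07 with Jun. The 2 Junb probe sets correlated with each other at 0.84 there. The high value of Jun with the other members over 12 arrays was thus not found within hippocampus.

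The genes whose log2 signal was most like Fos over the 12 arrays were Atf3 (r = 0.97), a bZIP factor induced by stress that pairs with Jun proteins, Selplg (0.94), a leukocyte adhesion ligand, and Ccn1 (0.93), a matrix protein encoded by an immediate early gene. Within the 9 hippocampal arrays they were Apoc1 (0.97), an apolipoprotein, Ctsz (0.97), a lysosomal protease, and Arrb1 (0.96), a beta-arrestin. The most like genes thus changed with the set of arrays. Over the 12 arrays, Fosb was most like Scd1 (0.97), a fatty acid desaturase, Socs3 (0.97), a feedback inhibitor of cytokine signalling, and Klf4 (0.95), a zinc finger factor. Jun was most like Septin4 (0.96), Socs3 (0.95) and 2610507B11Rik (0.93). The r probe set of Junb was most like Ccn1 (0.95), Ier2 (0.95), another immediate early gene, and Ash2l (0.93). Jund was most like Tyms-ps (0.94), Sf3a2 (0.91) and Slc16a8 (0.90). Socs3 was at the floor on average in every hippocampal group, so within hippocampus it gave no values to set beside Fosb and Jun. Within the 9 hippocampal arrays the most like gene was Creg1 (0.93) for Fosb, Get4 (0.94) for Jun, Eng (0.96), a coreceptor of endothelial cells, for the r probe set of Junb, and Hba-a1 (0.96), an alpha-globin gene and a blood marker, for Jund. The Jund and Hba-a1 values thus varied together over the hippocampal arrays, and the part of blood in the Jund values was not tested.

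The other immediate early genes were mostly higher in value at 5 weeks, and none passed. Of 32 in a list, 24 were on the array and 20 were tested. At 5 weeks 17 of 20 had a positive log2 difference from never-induced hippocampus, against 46.2% of all tested probe sets. Their median was 0.75 against -0.03 over all tested probe sets, but 0 passed in limma. An unadjusted p under 0.05 was found for 5 of the 20, and for 7.3% of all tested probe sets. The 3 with the smallest p were Bdnf, a neurotrophin (0.98, adjusted p = 0.0803), Gadd45b, a DNA-damage-inducible signalling protein (1.22, adjusted p = 0.0834), and Ccn1 (1.38, adjusted p = 0.253). In VC CA1 19 of 20 were positive, against 47.9% of all tested probe sets, with a median of 0.57, and 0 passed in limma. There 5 of the 20 had an unadjusted p under 0.05, as had 11% of all. Nfil3, a bZIP repressor, had the smallest p (2.02, adjusted p = 0.103, limma). In wild-type CA1 the median was 0.82 against -0.13 over all probe sets. There 2 of the 20, Ccn1 (1.91, adjusted p = 0.0196) and Gadd45b (0.94, adjusted p = 0.0456), passed in limma as higher than in never-induced hippocampus. Of all tested probe sets, 2.83% passed as higher in that comparison.

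Among the other AP-1 and bZIP partners, 14 of 28 were tested. At 5 weeks 10 of 14 had positive differences, against 46.2% of all tested probe sets, and the median was 0.32. In limma 0 passed, while 3 had an unadjusted p under 0.05, as had 7.3% of all. Atf3 came nearest, with 1.29 at 2 weeks (adjusted p = 0.129) and 1.44 at 5 weeks (adjusted p = 0.0847). In VC CA1 the median was 0.12 and 1 of 14 passed, where 1.26% of all tested probe sets did. It was Mafk, a small Maf protein (2.05, adjusted p = 0.0322, limma). In wild-type CA1 2 passed as higher, Atf3 (2.06) and Atf4 (1.01), a factor of the integrated stress response, and 1 as lower, Mafk (-1.36). There 2.83% of all tested probe sets passed as higher and 8.74% as lower.

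Of 38 kinases, phosphatases and factors upstream of AP-1, 20 were tested. At 5 weeks the median was -0.059 and in VC CA1 it was -0.0032, with 0 passing in limma in either. An unadjusted p under 0.05 was found for 2 and 0 of the 20, against 7.3% and 11% of all tested probe sets. The 3 with the smallest p at 5 weeks were Mapk8ip1, a scaffold of the Jun N-terminal kinase pathway (-0.83, adjusted p = 0.211), Dusp1, a phosphatase of these kinases that is itself an immediate early gene (1.18, adjusted p = 0.677), and Fbxw7, which marks Jun for degradation (-0.49, adjusted p = 0.803). In wild-type CA1 1 of 20 passed, Dusp2, as lower, where 8.74% of all tested probe sets passed as lower.

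Of 28 genes known as AP-1 targets in various cells, 15 were tested, by the brightest probe set of each. At 2 weeks Pdyn, the precursor of the dynorphin opioids (1.27, adjusted p = 0.0195), and Gfap, the filament protein of astrocytes (1.63, adjusted p = 0.0376), were higher than in never-induced hippocampus. At 5 weeks the same 2 passed, Gfap with 2.32 (adjusted p = 0.00702) and Pdyn with 1.02 (adjusted p = 0.0482), while the list median was 0.21. They were also the 2 that passed in VC CA1, with 3.32 for Pdyn (adjusted p = 0.000278) and 1.69 for Gfap (adjusted p = 0.0354), where the list median was 0.06. For Pdyn this is set against 1 wild-type CA1 array at a log2 signal of 6.30, near the floor of 6.04, and the mean of 9.62 in VC CA1 lay near the 9.50 of never-induced hippocampus. In wild-type CA1, Pdyn was the 1 gene of the list that passed, as lower than in never-induced hippocampus (-3.20, adjusted p = 0.000455, limma). Of all tested probe sets, 8.74% passed as lower there. The list median in VC CA1 was thus near that of all probe sets, -0.02, while 2 genes differed widely. The share of all tested probe sets that passed was 0.156% at 2 weeks, 0.99% at 5 weeks and 1.26% in VC CA1. An unadjusted p under 0.05 in limma was found for 6 of the 15 at 5 weeks, against 7.3% of all tested probe sets. In VC CA1 4 of the 15 had one, against 11% of all. Pdyn is also a known CREB target, and Gfap is also a marker of astrocytes, of whose 6 markers it was the 1 that passed at 5 weeks. The part of AP-1 in these values was not tested.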

How the data were processed

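Per the labels' protocols, RNA was prepared with TRIzol, enriched for polyA RNA and turned into biotinylated cRNA for the arrays. The deposited values are intensity on a linear scale, per the labels and the files, made by the authors with GCOS, per the submitters' processing notes; neither its version nor its scaling is stated there. The 2% trimmed mean was 500.3 to 500.4 on 4 arrays (wild-type hippocampus array 1 and the 3 CA1 arrays) and 3002 on 8. Each array was rescaled to 1000, floored at the 20th percentile (65.7, or 6.04 as log2) and log2 transformed. Probe sets above their array's median on at least 2 arrays were tested, 7069 of 12422 (66 controls were left out). Symbols came from the platform annotation, promoters from RefSeq (GRCm38.p6).

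Tests were two-sided, with limma 3.58.1 in R 4.3.3 (lmFit, eBayes), over 7 levels: never-induced, 1, 2 and 5 weeks, reversed, wild-type CA1 and VC CA1. The script was tested on simulated data. The number of arrays limits the precision. Every member probe set is named; list genes are named where they pass or, where none pass, by the smallest p, up to 3. The likeness rule was the 3 highest Pearson correlations. The members and lists were chosen with earlier results of these data known. Alternatives covered scaling, floor, filter, model, deposited scale, replicate block and each array left out.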

Additional observations from a re-analysis of the deposited data

How the results depend on the processing

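Of 914 alternative values of 43 member differences, 841 kept their direction and their side of the threshold, 44 lost a call, 12 gained one and 17 changed sign. Leaving out an array outside a comparison could not change its log2 difference, and few of the 43 had a call to lose. The kept values were thus in part fixed in advance and are no measure of stability. Each group holds 1 or 2 arrays, so precision is limited by their number, and the 5-week, reversed and wild-type CA1 results each rest on 1 array whose omission leaves no value. In induced against never-induced hippocampus, 9 probe sets passed in limma. That count was 2 with values as deposited, 5 levels, wild type alone as never-induced (8 levels) or the deposited scale as a block, 4 with the floor at the 10th percentile, 0 without the filter, 19 with trend and robust settings and 26 with hippocampal arrays only, and 2 to 26 with 1 array left out. The number of members that passed was 1 in place of 0 with hippocampal arrays only, and 0 to 1 with 1 array left out.

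At 1 week, 2 probe sets passed. The count was 0 with deposited values, quantile normalization, the floor at the 10th or 40th percentile or 8 levels, 1 with trend and robust settings, the scale block or hippocampal arrays only, 5 without the filter, and 0 to 2, in some fits 1, with 1 array left out. At 2 weeks, 11 passed. The count was 2 with deposited values or 8 levels, 3 with the scale block, 6 without the filter, 22 with hippocampal arrays only, and 2 to 22 with 1 array left out. At 5 weeks, 70 passed. The count was 2 with deposited values, 40 with 8 levels, and 40 to 94 with 1 array left out. Fos was the 1 member that passed there. It did not pass (a count of 0) with deposited values, quantile normalization, no filter, 8 levels or the scale block. Nor did it pass in 7 of the fits with 1 array left out, so that the count was 0 to 1. For Fos, the results with 8 levels and the scale block repeat those without VC on dox and without wild-type hippocampus array 1. The log2 difference of Fos was 2.26 to 3.22 over all alternatives. For 5 weeks against 1 week, 45 passed. The count was 1 with deposited values, 27 with 8 levels, and 3 to 67 with 1 array left out. The number of members was 1 in place of 0 with hippocampal arrays only, and 0 to 1 with 1 array left out.

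In VC against wild-type CA1, 89 probe sets passed. The count was 0 with deposited values, 33 with the floor at the 40th percentile or 5 levels, 57 with trend and robust settings, 344 without the filter, and 42 to 381 with 1 array left out, when 0 to 1 members passed. For the CA1 effect minus the hippocampal effect, 8 passed. The count was 0 with deposited values, the floor at the 40th percentile, 8 levels or the scale block, 2 with trend and robust settings, 4 with 5 levels, 20 with the floor at the 10th percentile, 25 with quantile normalization, 217 without the filter, and 0 to 87 with 1 array left out, when 0 to 1 members passed. For reversed against never-induced hippocampus, 0 passed, with 41 without the filter, 1 with trend and robust settings, and 0 to 1 with 1 array left out. For reversed against induced hippocampus, 3 passed, with 0 at 5 levels, 1 with deposited values, the floor at the 40th percentile or 8 levels, 41 without the filter, and 1 to 5 with 1 array left out. For wild-type CA1 against never-induced hippocampus, 818 passed. The count was 1 with deposited values, 164 with the scale block, 311 with 8 levels, and 298 to 1674 with 1 array left out. The number of members, 4, was 0 with deposited values, 1 with quantile normalization, no filter, 8 levels or the scale block, and 1 to 5, in some fits 2, with 1 array left out.

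With deposited values the sign turned for Jun in induced hippocampus (0.67), at 2 weeks (0.49), in the CA1 minus hippocampal effect (-0.40) and in wild-type CA1 (-0.55), for Fosb at 1 week (0.70), for the i and r probe sets of Junb after reversal against never-induced (0.29 and 0.33), and in wild-type CA1 for the r probe set of Junb (-0.83) and Jund (-1.10). These arrays were deposited on 2 scales. The sign also turned for Jun at 5 weeks with 8 levels or without VC on dox (-0.12) and for Fos after reversal against never-induced with the scale block or without wild-type hippocampus array 1 (-0.011). With 1 array left out, the range was -0.12 to 0.19 for Jun at 5 weeks and -0.011 to 0.23 for Fos after reversal. In VC CA1 it was -0.79 (without array 2) to 0.93 (without array 1) for Fosb and -0.030 to 1.07 for Fos, in the same order. Apart from deposited values, the cause was not tested.

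Wild type, 1 week and 2 weeks share replicate numbers, but arrays with the same number did not deviate together (correlations of deviations 0.04, 0.02 and -0.10), so the numbers were not taken as pairs. With the replicate block on the 6 numbered hippocampal arrays, 2 probe sets passed in the induced, 1-week and 2-week comparisons, and without the block on the same arrays 2, 0 and 2. The i probe set of Junb turned to -0.059 in induced hippocampus with and without the block, and no member passed in either.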
